A study of Mus musculus with 6 samples.

Results

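Potassium channel genes were examined in RNA sequencing libraries of the mouse dentate gyrus, the hippocampal region whose main neurons are the granule cells. The set comprised the 94 protein-coding genes of the deposited count table whose symbol begins with Kcn, out of 54040 genes in that table, and was defined by symbol and not by a measured value. It held 40 pore-forming or silent subunits of voltage-gated (Kv) channels, 15 inward rectifiers (Kir), 14 two-pore-domain (K2P) leak channels, 6 genes of the calcium-activated (KCa) group with its relative Slo3, the pair of sodium-activated (KNa) channels and 17 auxiliary subunits. The 3 cKO libraries are labelled as a knockout of YTHDF2, which the series title places in granule cells, and the 3 Ctrl libraries as its control. All were total RNA from the C57BL/6 strain at postnatal day 40. The sources used here do not give the allele, the driver of the knockout or the number of animals behind a library. The p-values therefore refer to the spread among 6 libraries, which may be technical.

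Potassium channels set the resting potential of a neuron, repolarise its action potentials and limit repetitive firing. Kv subunits open on depolarisation, Kir and K2P channels carry current near rest, and KCa and KNa channels couple the potassium current to intracellular calcium or sodium. Auxiliary subunits alter the gating and surface delivery of the pore-forming ones. YTHDF2 binds N6-methyladenosine (m6A) on messenger RNA and directs the message to decay, and the comparison asks which transcripts differ between the libraries labelled cKO and Ctrl.

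Gene counts summed to 16794642 to 19190101 per library, and 16928 genes were tested after removal of low counts. Levels within a gene are given as TMM-normalised CPM (counts scaled to a common library total), where 1 raw count stood for 0.0521 to 0.0595 CPM, and levels between genes as the deposited FPKM, which is per kilobase of gene length. Fold changes are cKO over Ctrl on the log2 scale with their standard error (SE), and a gene was called changed at a false discovery rate under 0.05 in the quasi-likelihood test of edgeR, adjusted by Benjamini-Hochberg over every tested gene. The targeted gene Ythdf2 stood at 54.5 to 56.8 CPM in cKO and at 37.9, 68.6 and 68.4 CPM in Ctrl replicates 1, 2 and 3, with a log2 fold change of -0.06 (adjusted p = 0.882, and 0.00951 without the library labelled Ctrl replicate 1). Its level in that library went against the label, since it lay below every cKO library. The library stayed in its group, and the numbers of members that rose and fell over the whole set are also given without it. Markers of mature granule cells summed to 441 to 486 FPKM over the 6 libraries with all 8 genes detected, and markers of astrocytes and microglia were also present, so the RNA was not from granule cells alone. Mitochondrial genes took 4.21% to 4.44% of the counts in cKO and 4.60% to 5.19% in Ctrl, without overlap between the groups, and the part of this difference in the changes of the members was not tested.

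Of the 94 potassium channel genes 76 were tested, 7 changed and 69 did not pass the test. Kcnip2, Kcnk9 and Kcnt1 were among the 5 that rose, and the 2 that fell were Kcnb2 and Kcnj16. These 7 are 9.21% of the tested members, beside 3.95% of all tested genes that changed in either direction. The members that rose are 6.58%, beside 3.07% of all tested genes, and those that fell are 2.63%, beside 0.874%. After per-library correction for GC content and length 2 of the 76 members passed, or 2.63%, beside 2.76% of all tested genes, of which 306 rose and 162 fell, so the members' share was then near that of all genes. The median log2 fold change over the tested members was 0.02, beside -0.0010 over all tested genes, and 42 of the 76 had an absolute log2 fold change under 0.1. The median was -0.0091 after that correction, beside -0.02 over all tested genes. The CPM ranges of the groups did not overlap for 14 of the tested members, or 18.4%, a smaller share than the 22.9% of all tested genes. Without the library labelled Ctrl replicate 1 4 members rose, among them Kcnip2, Kcnk9 and Kcnt1, and the 1 that fell was Kcnj3. Over all genes 382 rose and 122 fell in that setting. The other 18 members were too low to test, with at most 35 counts over the 6 libraries together, and 2 of them (Kcnj1 and Kcnj15) had no count at all.

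**Figure D1:**
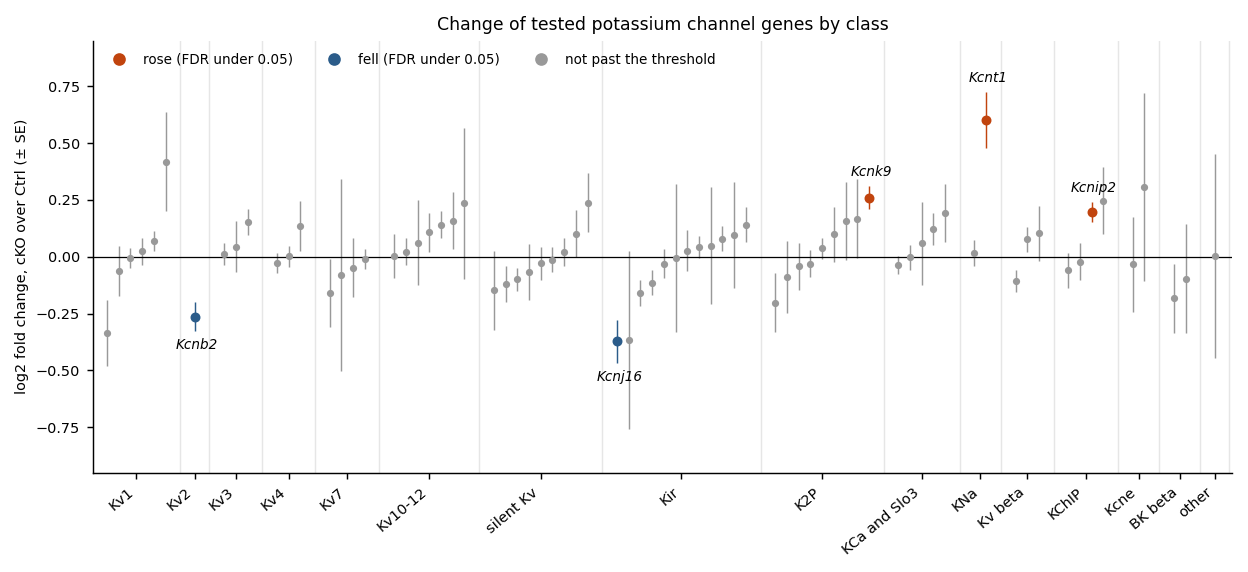
Log2 fold change of cKO over Ctrl (vertical axis, with SE) for 73 of the 76 tested potassium channel genes, ordered within classes along the horizontal axis. Orange points rose, blue points fell and grey points did not pass the threshold; Kcnt1 stands highest at 0.60.

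Kcnt1, which encodes the sodium-activated channel subunit Slack (KNa1.1), showed the largest fold change among the members that passed. It was measured at 38.3, 36.3 and 42.7 CPM in the cKO libraries, in the order of their replicate numbers, and 31.1, 19.3 and 26.9 CPM in the Ctrl libraries in the same order, which is kept for the genes that follow. Every cKO library lay above every Ctrl library, although the controls spread widely, with Ctrl replicate 2 lowest. The means were 39.1 ± 3.27 (SD, n = 3) and 25.8 ± 6.02 CPM, so that cKO was 1.52-fold higher, with a log2 value of 0.60 ± 0.12 (SE) (edgeR adjusted p = 0.0131). Kcnt1 (ENSMUSG00000058740) lies on the plus strand of chromosome 2 from 25863734 to 25918273 in GRCm38.

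Kcnk9 encodes TASK-3, an acid-sensitive K2P leak channel. It measured 271, 269 and 270.3 CPM in the cKO libraries and 207, 226 and 242 CPM in the Ctrl libraries. The cKO values were nearly equal and all lay above the controls, which spread more widely. The log2 fold change was 0.26 ± 0.05 (SE), a rise of 19.7% (edgeR adjusted p = 0.00988). Kcnk9 lies on the minus strand of chromosome 15 from 72501089 to 72546340.

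Kcnip2 encodes KChIP2, a calcium-binding subunit of the A-type Kv4 channels, and was the second most abundant member of the set. Its level was 357, 344 and 374 CPM in cKO and 313, 301 and 324 CPM in Ctrl. The groups did not overlap, and the gap between the lowest cKO and the highest Ctrl library was narrower than the spread within either group. The log2 fold change was 0.20 ± 0.04 (SE), or 14.6% (edgeR adjusted p = 0.0200). The gene is on the minus strand of chromosome 19 from 45791839 to 45816061.

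Kcnb2, which encodes the delayed rectifier Kv2.2, fell from 32.7 ± 0.174 to 27.2 ± 1.05 CPM. The cKO libraries held 28.4, 26.7 and 26.5 CPM and the Ctrl libraries 32.7, 32.8 and 32.5 CPM. All cKO values lay below the nearly identical controls, with a log2 fold change of -0.26 ± 0.06 (SE) and an edgeR adjusted p of 0.0336. Kcnb2 spans 15287254 to 15723750 on the plus strand of chromosome 1.

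Kcnj16 encodes Kir5.1, a rectifier subunit that assembles with the glial channel Kir4.1. It was read at 13.4, 12.96 and 14.3 CPM in cKO and at 16.9, 19.3 and 16.55 CPM in Ctrl. The groups did not overlap, and the log2 fold change was -0.37 ± 0.09 (SE), a fall of 22.7% in cKO (edgeR adjusted p = 0.0416). It lies on the plus strand of chromosome 11 from 110968033 to 111027968, and its neighbour Kcnj2, which starts 38.2 kb downstream, stood at 0.03 (adjusted p = 0.925). Markers of astrocytes, the cells known for Kir4.1 and Kir5.1, summed to 731 to 737 FPKM in cKO and 800.0 to 804 FPKM in Ctrl. Of 9 tested astrocyte markers 3 fell, 0 rose, 7 had negative log2 fold changes and the median was -0.12. The largest positive value was 0.21 (edgeR adjusted p = 0.094). Over all tested genes 0.874% fell. Each of the 3 markers that fell passed in only 1 or 2 of the 6 settings that left out a library. Their part in the fall of Kcnj16 was not tested, and in bulk RNA fewer cells of a type and less RNA per cell cannot be told apart.

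**Figure D2:**
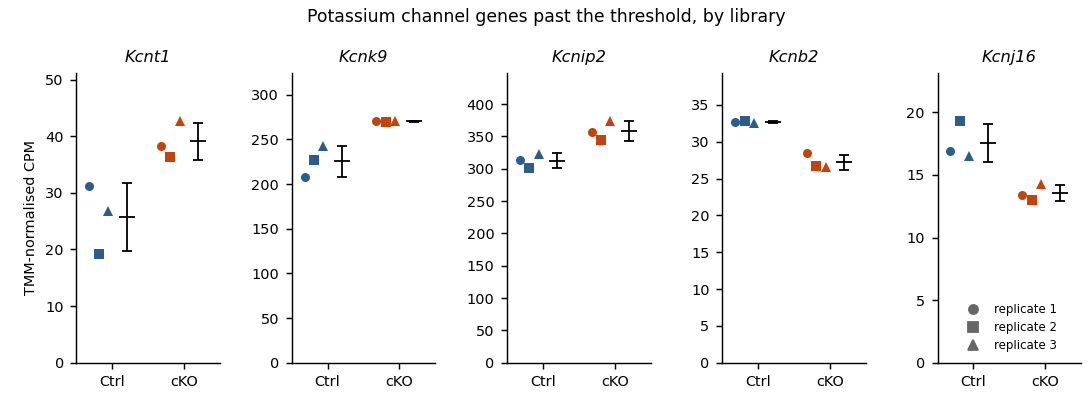
TMM-normalised CPM (vertical axes, from 0) of 5 changed potassium channel genes in each library, with Ctrl in blue, cKO in orange, marker shape for the replicate number, and black bars for the group mean ± SD of 3 libraries. In every panel the groups do not overlap; the Ctrl libraries of Kcnt1 spread from 19.3 to 31.1 CPM, and those of Kcnb2 lie between 32.5 and 32.8 CPM.

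The calls of these genes held to different degrees when 1 library was left out. Fewer genes of all kinds passed in each such setting. Kcnt1 and Kcnk9 passed with any library left out except cKO replicate 3, without which their edgeR adjusted p-values were 0.0892 and 0.055. Kcnip2 did not pass without cKO replicate 1 or 3 or Ctrl replicate 2 (adjusted p = 0.057, 0.135 and 0.092). Kcnb2 passed without cKO replicate 1 (0.048) but with no other library removed, with adjusted p-values of 0.0679 to 0.158, and Kcnj16 did not pass with any library left out (0.055 to 0.155). Without cKO replicate 3 none of the members passed edgeR's test, although these fold changes kept their sign. Over all genes 189 rose and 25 fell without that library, beside 520 and 148 with all libraries. With limma-trend on log2(FPKM + 0.1) or log2(FPKM + 1) none of the members passed either, and the adjusted p-values of these 5 genes were 0.0873 to 0.237.

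Transcript base composition moved with the fold changes. The GC content of the representative GENCODE M21 transcript (the protein-coding one with the longest coding sequence) was 56.4% for Kcnip2, 55.7% for Kcnt1 and 47.9% for Kcnk9, but 39.3% for Kcnb2 and 43.2% for Kcnj16. The median was 53.6% over the tested members and 50.1% over all tested genes with a value. Of 31 tested members with at least 55% GC 3 rose and their median log2 fold change was 0.10, beside 0.06 for the 4056 genes of all kinds in that range. Of 31 members from 45% to under 55% GC 2 rose and 0 fell. Their median was 0.02, beside -0.0078 for all 8738 genes in that range. Of 14 members under 45% GC 2 fell and the median was -0.06, beside -0.05 for all 3916 genes in that range. Shares of changed genes among all genes of these ranges were not computed. With the correction for GC content and length, Kcnk9 (0.25, adjusted p = 0.0149) and Kcnt1 (0.53, adjusted p = 0.0394) were the 2 members that still passed. Kcnb2 (-0.25, adjusted p = 0.0512), Kcnj16 (-0.33, 0.0774) and Kcnip2 (0.14, 0.0912) did not.

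**Figure D3:**
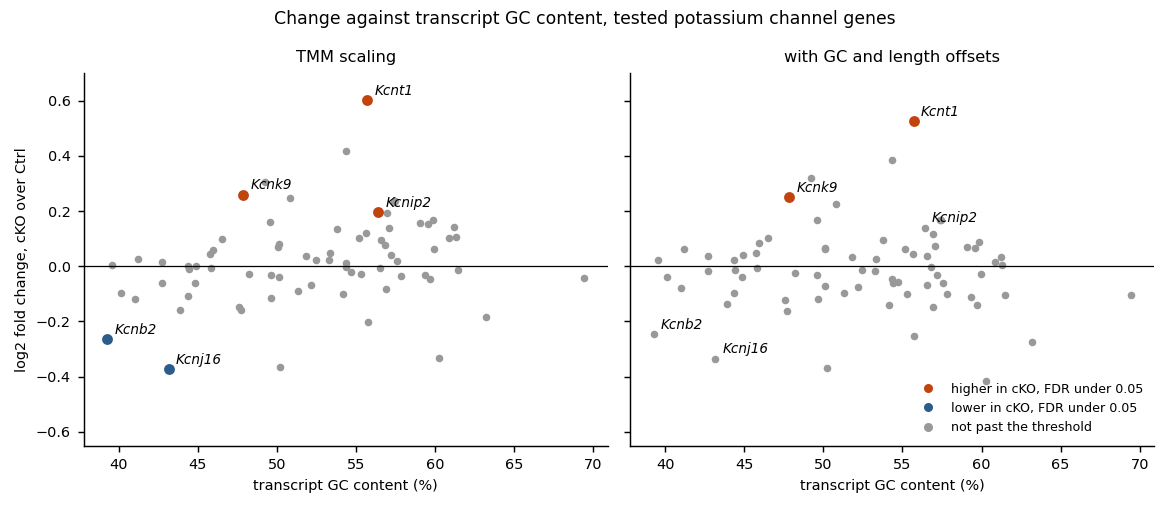
Log2 fold change of cKO over Ctrl (vertical axis) against the GC content of the representative transcript in percent (horizontal axis) for 73 of the 76 tested potassium channel genes, under TMM scaling (left) and with per-library GC and length offsets (right). The 5 changed genes shown are named; 5 points are coloured on the left, and Kcnk9 and Kcnt1 are coloured on the right.

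The sequences below are shown because YTHDF2 reads m6A, which is commonly placed in a context of which GGACT, with U for T in the RNA, is a frequent form and which is often found near stop codons. For 5 changed genes the copy of GGACT nearest to the end of the coding sequence of the representative transcript is printed on the messenger strand, 5′ to 3′, with the motif in capitals and 8 bases on each side.
Kcnk9: tcccccaaGGACTgggtggct
Kcnj16: aaacaactGGACTggaaggac
Kcnt1: agcacctgGGACTgcccacca
Kcnip2: agttttgaGGACTttgtggct
Kcnb2: tgtgccacGGACTtcacagag
The copy in Kcnk9 starts 440 bases after the last base of the stop codon, in the 3′ UTR, while the other 4 lie in coding sequence. The transcript of Kcnt1 holds 13 copies (2.21 per kb), that of Kcnk9 12 (0.976 per kb) and that of Kcnip2 2 (0.835 per kb). Those of Kcnj16 and Kcnb2 hold 4 (1.08 per kb) and 9 (0.606 per kb). The median was 1.05 per kb over tested protein-coding genes. Within 100 bases on either side of the end of the coding sequence the motif occurred in none of these 5 genes, in 1 of all 7 changed genes, in 17 of 72 tested members with such a window (23.6%) and in 24.6% of 12945 tested protein-coding genes. A match of letters does not show that a site is methylated, and methylation was not measured here.

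By level per length, 10 genes made up 53.4% of the summed FPKM of the set. Kcnab2, encoding the Kvβ2 subunit, stood first at 109 ± 7.44 FPKM (SD over 6 libraries), followed by Kcnip2 at 96.0 ± 7.77. Also among the 10 were the K2P channel gene Kcnk1 at 58.6 ± 1.55 FPKM, the inward rectifier gene Kcnj4 at 51.6 ± 3.47, Kcnc4 (42.8), Kcnd2 (33.1), Kcnj9 (31.3) and Kcnj3 (25.3). The ranges of Kcnab2 and Kcnip2 overlapped over the 6 libraries, and from Kcnd2 down to the 20th gene every member overlapped the next. Gaps without overlap separated Kcnk1 from Kcnj4 and Kcnc4 from Kcnd2. In all, 30 members had a mean of at least 10 FPKM, 36 lay between 1 and 10, and 28 lay under 1. Summed over the 94 genes, FPKM was 1053 to 1061 in the cKO libraries and 1006 to 1033 in Ctrl, a sum to which the changed genes themselves contribute.

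**Figure D4:**
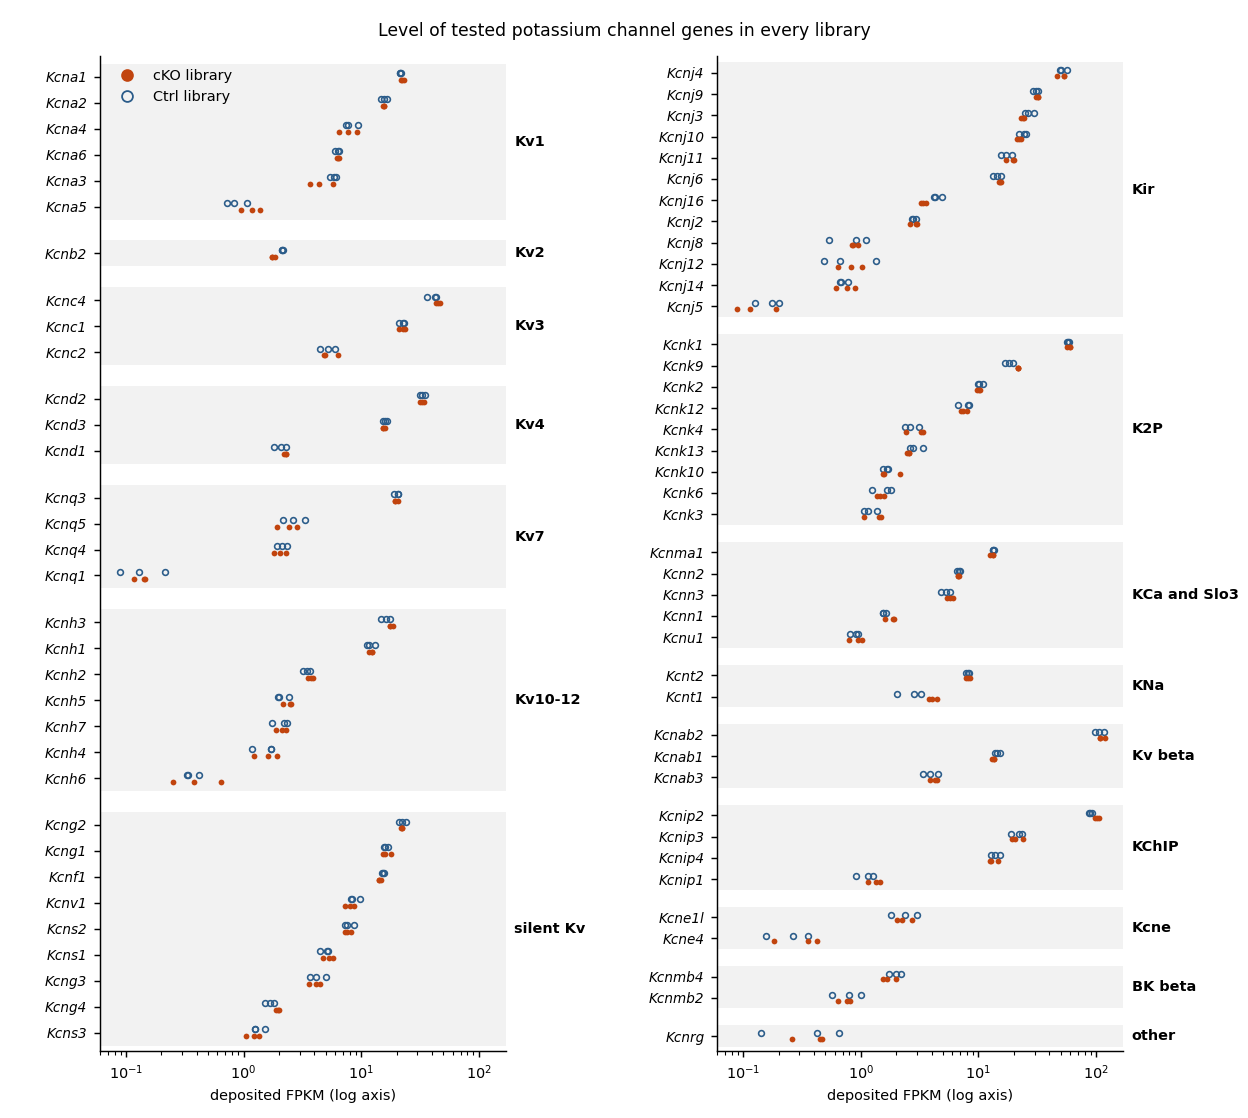
Deposited FPKM (horizontal log axis) of 73 of the 76 tested potassium channel genes in each of 3 cKO (filled orange) and 3 Ctrl (open blue) libraries, grouped by class and ordered by mean within a class. Kcnab2 and Kcnip2 lie near 100 FPKM and Kcnj5 and Kcnq1 near the lower end of the axis.

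By family the changed genes were 3 of 36 tested Kv genes, 1 of 12 Kir genes and 1 of 9 K2P genes. They were 0 of 5 KCa genes, 1 of the 2 KNa genes and 1 of 12 auxiliary genes, beside 3.95% of all tested genes. With few genes in a family such a share says little, and the differences between families were not tested. After the correction for GC content and length only Kcnk9 (K2P) and Kcnt1 (KNa) passed. The median log2 fold change was 0.02 for Kv, 0.01 for Kir, 0.04 for K2P, 0.06 for KCa and -0.0093 for auxiliary genes.

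Among voltage-gated channels, 36 of 40 genes were tested, 2 rose, 1 fell and 33 did not pass. Kcnc4 (Kv3.4), of the class that allows fast firing, measured 166 ± 6.08 and 149 ± 12.6 CPM, a log2 fold change of 0.15 with an unadjusted p of 0.0167 and an edgeR adjusted p of 0.162, while Kcnc1 (Kv3.1) stood at 0.01 and Kcnc2 (Kv3.2) at 0.04. Kcnq3, a subunit of the M channel that damps repetitive firing, measured 293 ± 7.93 and 295 ± 13.7 CPM (-0.01, adjusted p = 0.946).

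None of the 6 tested Kv1 genes passed by edgeR, DESeq2 or limma-voom, and 1 had an unadjusted edgeR p under 0.05. The Kv1 channels of axons are led here by Kcna1 (21.9 FPKM, log2 fold change 0.07), Kcna2 (15.6 FPKM, -0.01) and Kcna4 (7.97 FPKM, -0.06). Kcna3, also known from microglia and lymphocytes, had an unadjusted p of 0.0369 and measured 8.80 ± 2.001 CPM in cKO and 11.1 ± 0.715 CPM in Ctrl (-0.33, adjusted p = 0.245). The Kv4 genes, which carry the dendritic A-type current, did not pass either (0 of 3 by edgeR, DESeq2 or limma-voom, and 0 with an unadjusted edgeR p under 0.05). Kcnd2 (Kv4.2) held 171 ± 6.33 CPM in cKO and 171 ± 7.25 CPM in Ctrl, and Kcnd3 (Kv4.3) stood at -0.03.

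The ether-à-go-go related class (Kv10 to Kv12) had 7 tested genes with log2 fold changes of 0.0040 to 0.23, of which none passed by edgeR, DESeq2 or limma-voom and 1 had an unadjusted edgeR p under 0.05. Its most abundant members were Kcnh3 (17.0 FPKM, 0.14, unadjusted p = 0.0306, adjusted p = 0.224), Kcnh1 (12.1 FPKM, 0.02) and Kcnh2 (3.599 FPKM, 0.11). Silent subunits, which form no channel alone but modify Kv2 channels, summed to 80.02 to 82.4 FPKM in cKO and 80.8 to 83.7 FPKM in Ctrl. Kcng2 (22.2 FPKM), Kcng1 (16.2 FPKM) and Kcnf1 (14.8 FPKM) led the 9 tested silent genes. By edgeR, DESeq2 or limma-voom 0 of the 9 passed, and 0 had an unadjusted edgeR p under 0.05, with a log2 fold change of -0.10 for Kcnf1 (adjusted p = 0.308).

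Inward rectifiers included 12 tested genes, of which Kcnj16 fell and 11 did not pass. Kcnj4 (Kir2.3), the most abundant, measured 110.5 ± 8.45 CPM in cKO and 113 ± 7.90 CPM in Ctrl (log2 fold change -0.03). The subunits of G protein-gated channels were Kcnj9 (31.3 FPKM, 0.04), Kcnj3 (25.3 FPKM, -0.16) and Kcnj6 (14.8 FPKM, 0.08). Kcnj3 had an unadjusted p of 0.0159 and an adjusted p of 0.158, and it passed without Ctrl replicate 1 (-0.21, adjusted p = 0.0475) and without a low-count filter (-0.17, adjusted p = 0.0333). It shares 31.1% of its exon bases with the antisense gene Gm26794. Kcnj10, the Kir4.1 partner of Kcnj16 in astrocytes, measured 120.2 ± 4.97 and 130.1 ± 8.69 CPM (-0.11, adjusted p = 0.287). Kcnj11, the pore of ATP-sensitive channels, measured 70.4 ± 5.93 and 63.9 ± 7.07 CPM (0.14, adjusted p = 0.379).

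Of 9 tested K2P genes Kcnk9 rose and 8 did not pass. Kcnk1 (TWIK-1) took 54.9% of the FPKM of this class and measured 133 ± 4.07 and 130 ± 2.54 CPM (log2 fold change 0.04, edgeR adjusted p = 0.731). Kcnk2 (TREK-1) held 10.2 FPKM and stood at -0.03. Kcnk13, which encodes THIK-1, a channel known in microglia, measured 7.93 ± 0.219 and 9.13 ± 1.24 CPM (-0.20, adjusted p = 0.455). Kcnk3, the TASK-1 paralog of Kcnk9, was low at 1.26 FPKM and stood at 0.16 ± 0.17 (SE).

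Of 5 tested genes of the calcium-activated group 0 passed by edgeR, DESeq2 or limma-voom, and 0 had an unadjusted edgeR p under 0.05. Kcnma1, the large-conductance BK channel, measured 223 ± 6.92 and 229 ± 2.52 CPM (log2 fold change -0.04), and the small-conductance Kcnn2 and Kcnn3 stood at -0.0027 and 0.12. Of the KNa pair Kcnt2 (8.11 FPKM) was more abundant than Kcnt1 (3.40 FPKM) and measured 56.5 ± 2.37 and 55.9 ± 1.996 CPM (0.02, adjusted p = 0.922).

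Among auxiliary subunits 12 of 17 genes were tested, Kcnip2 rose and 11 did not pass. Kcnip2 took 72.7% of the FPKM of the KChIP class, and Kcnip3 and Kcnip4 stood at -0.02 and -0.06. Kcnab2 measured 629 ± 30.0 and 596 ± 53.6 CPM (log2 fold change 0.08, adjusted p = 0.529), and Kcnab1 (Kvβ1) 115.5 ± 3.17 and 124 ± 5.73 CPM (-0.11, unadjusted p = 0.0441, adjusted p = 0.268). The β subunits of the BK channel were low, with Kcnmb4 at 1.85 FPKM (-0.18) and Kcnmb2 at 0.766 FPKM (-0.10). Of the Kcne genes Kcne1l held 2.36 FPKM (-0.03) and Kcne4 0.290 FPKM (0.31 ± 0.41, SE), and Kcnrg, a regulator of Kv assembly, 0.399 FPKM (0.0027).

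Of the changed genes 4 were set beside a related subunit within each library as a ratio of FPKM, which does not depend on library scaling. The ratio is not corrected for GC content. Transcript GC content was 55.7% and 42.7% for Kcnt1 and Kcnt2, and 56.4% and 44.4% for Kcnip2 and Kcnd2. It was 43.2% and 49.6% for Kcnj16 and Kcnj10, and 47.9% and 59.1% for Kcnk9 and Kcnk3. The groups did not overlap for any of the 4 numerator genes alone, so a ratio is no separate evidence of their change. Kcnt1 over Kcnt2 was 0.492, 0.487 and 0.527 in the cKO libraries and 0.390, 0.259 and 0.349 in the Ctrl libraries, by replicate number. Kcnip2 over the Kv4 pore gene Kcnd2 averaged 3.103 ± 0.135 in cKO and 2.71 ± 0.186 in Ctrl. Both ratios were higher in every cKO library than in any control. Kcnj16 over Kcnj10 averaged 0.155 ± 0.0113 and 0.187 ± 0.0286. It was lower in every cKO library than in any control. Kcnk9 over Kcnk3 overlapped between the groups, at 20.5, 15.2 and 14.6 in cKO and 15.8, 15.8 and 14.4 in Ctrl. The 4 pairs were chosen after the values were seen, and an exact permutation test of 3 libraries against 3 cannot go below p = 0.1, so the ratios are given without a test.

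**Figure D5:**
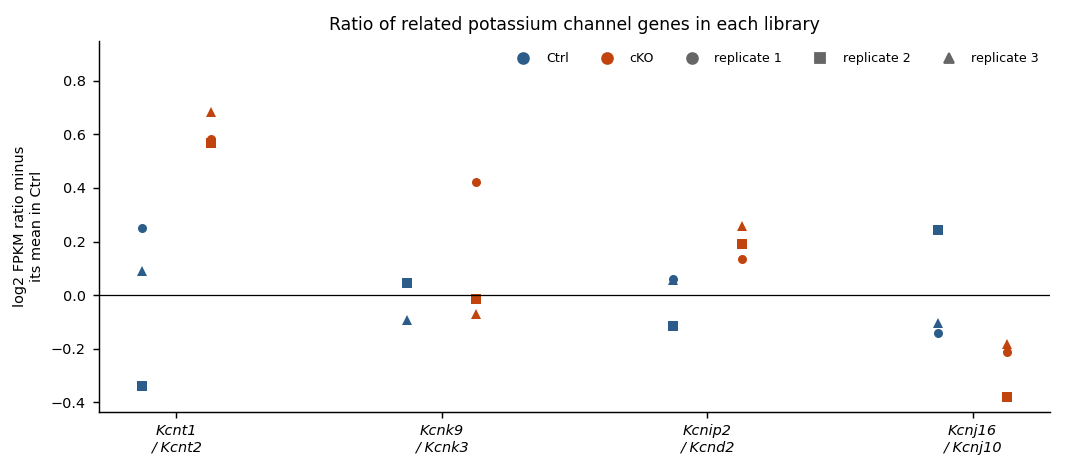
Log2 ratio of FPKM between related potassium channel genes in each library, minus the mean of that ratio in the 3 Ctrl libraries (vertical axis), for 4 pairs (horizontal axis). Ctrl is blue, cKO is orange and the marker shape gives the replicate number; the groups overlap for Kcnk9 over Kcnk3 and for no other pair.

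Genes whose products bind or regulate potassium channels, with the related Hcn channels, included 24 tested of 26 listed, of which 2 rose, 0 fell and 22 did not pass. Over all tested genes 3.07% rose and 0.874% fell, and the list was not tested as a set. Abcc8 encodes the sulfonylurea receptor SUR1 of ATP-sensitive channels and stood at 134 ± 9.30 CPM in cKO and 102 ± 4.89 CPM in Ctrl, a rise of 0.40 ± 0.06 (SE) on the log2 scale (edgeR adjusted p = 0.00142). Adam11, a synaptic ADAM protein without protease activity that localises Kv1 channels at cerebellar terminals in mice, rose from 234 ± 3.05 to 295 ± 16.4 CPM (0.34 ± 0.04, adjusted p = 0.000908). Both passed with any single library left out and with the GC and length correction (0.30 and 0.23), and Abcc8 did not pass with limma-trend on log2(FPKM + 1), at an adjusted p of 0.0507. The list's median was 0.04. Vapa, which encodes a membrane contact protein that clusters Kv2 channels, was the most abundant at 56.4 FPKM and stood at -0.05 (adjusted p = 0.663). The Kv4 auxiliary gene Dpp6 stood at 0.02, the Kv2 auxiliary gene Amigo1 at -0.0013, and Hcn2 and Hcn3 at 0.04 and 0.20 (adjusted p = 0.819 and 0.326).

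Markers of microglia, the cells known for Kcnk13 and Kcna3, also moved with the groups. They summed to 180.0 to 193 FPKM in cKO and 212 to 228 FPKM in Ctrl, where 5 of 10 fell, 0 rose and the median was -0.27. Over all tested genes 0.874% fell. The 5 markers that fell passed in 2 to 6 of the 6 settings that left out a library. All 10 had negative log2 fold changes, and none was at 0 CPM in either group. Their part in the values of Kcnk13 and Kcna3, neither of which passed, was not tested. Markers of the choroid plexus, which is known for Kcnj13 and Kcne2, summed to 3.23 to 5.001 FPKM in cKO and 2.96 to 4.98 FPKM in Ctrl, and both of those members were too low to test. Among these markers Ttr was uneven within both groups, at 0.355 to 2.69 CPM in cKO and 0.417 to 2.54 CPM in Ctrl.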

How the data were processed

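RNA was sequenced from 3 cKO and 3 Ctrl samples of mouse dentate gyrus. Libraries were made with a NEBNext Ultra kit, per the labels' protocols. The submitters' processing notes name GRCm38 and the tools featureCounts 1.5.0-p3, HISAT2 2.0.5 and StringTie 1.3.3b. The annotation and whether counting used strand are not given in any source used. The authors deposited whole-number gene counts and FPKM values; the deposited FPKM equals the count over gene length and a constant that is 99.8% to 101% of the library total.

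Samples were grouped by title. In R 4.3.3 with edgeR 4.0.16, filterByExpr (minimum count 10, minimum total 15) kept 16928 genes, and TMM-scaled counts of all 6 libraries were compared by edgeR's quasi-likelihood F test (glmQLFTest), with no term but the group. SE is the log2 fold change over the square root of F. The common biological coefficient of variation was 5.67%. The test was also run on counts simulated from the means and dispersions of these data. The simulated counts held no GC trend and no odd library, so that run does not bear on either. Alternatives were DESeq2 1.42.0, limma-voom and limma-trend (limma 3.58.1), scaling by RLE or upper quartile, other filters, protein-coding genes only, a replicate block, loess offsets (span 0.3) for GC content and length, which was known for 98.7% of tested genes, and leaving out each library. GENCODE M21 (GRCm38) gave transcript sequences and matched 53620 of 54040 genes by identifier.

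The members, gene lists and tests were chosen with earlier results of these data known. Named genes were all changed members, up to 3 members of highest FPKM in each class, members that passed under an alternative with all libraries, and the changed and the 2 most abundant partner genes. Kcna3, Kcnc2, Kcnj2, Kcnj6, Kcnj10, Kcnj11, Kcnk3, Kcnk13, Amigo1, Hcn2 and Hcn3 were named after their values were seen. Kcna5, Kcnj1, Kcnj5, Kcnj13, Kcnj15, Kcnq1 and Dpp6 were likewise named outside that rule, with their values known. Some genes that count among the members or partners are not reported here by name.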

Additional observations from a re-analysis of the deposited data

How the results depend on the processing

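The counts of changed members, 5 that rose and 2 that fell, stayed within 1.5 times under RLE and upper-quartile scaling, DESeq2, limma-voom, both other filters and protein-coding genes only. With GC and length offsets 2 rose and 0 fell, and limma-trend on log2(FPKM + 0.1) or log2(FPKM + 1) called 0 and 0. Leaving out 1 library gave 0 to 4 that rose and 0 to 1 that fell, with 0 in both directions without cKO replicate 3; the cause was not tested. Over all genes, 520 rose and 148 fell. The genes that rose numbered 306 with GC and length offsets, 93 and 80 with limma-trend at pseudocounts 0.1 and 1, and 189 to 436 with a library left out. The genes that fell numbered 162 with GC and length offsets, 243 with DESeq2, 426 without a filter, 17 and 15 with limma-trend, and 25 to 122 with a library left out. Leaving out a library gave Ythdf2 a log2 fold change of -0.29 (without Ctrl replicate 1) to 0.0687 (without Ctrl replicate 3). The median log2 fold change of tested members stayed between -0.01 and 0.04. Of the 69 members that did not pass, 37 changed sign under some alternative and 1, Kcnj3, passed under any.

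Deviations from the group mean correlated at 0.0914, 0.0180 and 0.00846 between libraries of the same replicate number, so the numbers were not taken to pair samples. With the replicate block 5 members rose and 2 fell, and over all genes 604 rose and 204 fell. The replicate block with GC and length offsets gave 2 and 0 members and 344 genes that rose.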

Other observations

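Antisense transcripts named after potassium channel genes are outside the protein-coding set. Kcnq1ot1, the antisense transcript of the imprinted Kcnq1 locus, had 912 to 1023 counts per library and a log2 fold change of -0.0014 (edgeR adjusted p = 0.995), while Kcnq1 itself was at 0.140 FPKM. Kcnmb4os2 had 74, 73 and 79 counts in the cKO libraries and 44, 71 and 65 in the Ctrl libraries, a log2 fold change of 0.35 (edgeR adjusted p = 0.364), and it shares 20.8% of the exon bases of Kcnmb4. Kcnd3os stood at 0.12 (edgeR adjusted p = 0.798).

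Several members lie close together on a chromosome. The pairs given here were picked with their values known and are not all such pairs. They had different estimates of the log2 fold change (± SE). On chromosome 1 Kcnj9 and Kcnj10 are 11.9 kb apart and stood at 0.04 ± 0.05 and -0.11 ± 0.05. On chromosome 3 Kcna3 and Kcna2 are 63.1 kb apart and stood at -0.33 ± 0.15 and -0.01 ± 0.05. On chromosome 6 Kcna5 and Kcna1 are 105 kb apart and stood at 0.42 ± 0.22 and 0.07 ± 0.04. Another pair of tested members on that chromosome, 61.9 kb apart, stood closer, at 0.07 and 0.02. None of these members passed edgeR's test, and the differences within a pair were not tested.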
